A study of Rattus with 6 samples.

Results

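The genes for the proteins of the cytosolic ribosome were described in H9C2, a cell line from the heart of a rat embryo. There were 3 libraries of cells given a control plasmid and 3 of cells given a plasmid that overexpresses RBM25. This RNA-binding protein acts in the choice of splice sites, and the study used it to look for genes and splicing events that depend on its level. Genes were chosen by name: a protein-coding gene whose symbol begins with Rpl or Rps and a digit, or is Rplp0, Rplp1 or Rplp2, without the Rps6k kinases. This gave 97 of the 20742 genes in the deposited count table, of which 16544 were protein-coding. All 6 libraries were poly(A)-selected RNA of the same line, which serves as a model of heart muscle but is a dividing line. The promoter of the plasmid, the time after its delivery and the number of separate cultures are not given in the labels.

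The ribosome reads mRNA with its small subunit and joins amino acids with its large one. Nearly all of its proteins are present once per ribosome, so cells make them in like amounts, and surplus copies are degraded. Their mRNAs are short and abundant, and they begin with a run of pyrimidines (the terminal oligopyrimidine, or TOP, motif) through which the kinase complex mTORC1 and the binding protein LARP1 set how well they are translated. Mammalian genomes also carry many retrocopies of these genes, which makes the counting of their reads uncertain. No base or amino acid sequence is shown here.

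Libraries held 25543849 to 33130256 counted reads. Of the muscle markers listed for a check of the cell type, 8 of 10 reached 1 CPM (read count scaled to the total of the library), with the calcium store gene Casq2 highest at a mean of 341 CPM. Summed muscle markers were at 479 to 497 CPM with the control plasmid and at 492 to 560 CPM with the RBM25 plasmid, so the groups overlapped. The value of 560 CPM was that of RBM25 replicate 3 alone. There Tnnt2 was at 139 CPM, against 93.7 and 94.5 CPM in RBM25 replicates 1 and 2 and 101 to 111 CPM in the controls. Mesenchymal markers summed to 27715 to 29990 and 27953 to 29567 CPM, mostly of collagens such as Col1a1 (mean 12872 CPM). Of these markers 7 of 8 reached 1 CPM, while Pdgfra was under 0.1 CPM. Endothelial markers reached at most 0.884 CPM in sum, with Pecam1, Cdh5 and Kdr each under 0.1 CPM. Epithelial markers summed to 24.9 to 30.2 CPM, nearly all of it Krt8 (mean 27.0 CPM), while Epcam and Cdh1 were under 0.1 CPM. Of 7 leukocyte markers 3 were listed in the table, with a sum of 5.58 to 6.91 CPM that was mostly Cd3e, and the erythroid sum reached at most 0.108 CPM. Rbm25 itself was at 49.2, 44.5 and 45.7 CPM in control replicates 1, 2 and 3 and at 56.3, 55.9 and 60.1 CPM in RBM25 replicates 1, 2 and 3. Every RBM25 library was above every control library, with a log2 fold change of 0.30 ± 0.047 (SE; adjusted p = 0.0011, edgeR), a call that was lost without control replicate 2 (0.28, edgeR adjusted p = 0.0842) and with limma-trend on FPKM (adjusted p = 0.202 and 0.266). In bulk RNA of this kind, fewer cells of a type and less RNA per cell cannot be told apart.

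The 97 genes took 8.07%, 8.33% and 8.23% of all counted reads in control replicates 1, 2 and 3. They took 8.19%, 8.27% and 8.21% in RBM25 replicates 1, 2 and 3. The groups overlapped, with means of 8.21% ± 0.133 and 8.23% ± 0.0420 (SD, n = 3), and the lowest and the highest value were both controls. Because the mRNAs are short, their part of the summed level per gene length was larger. In FPKM (fragments per length of gene and sequencing depth, as deposited), the 97 genes held 19.2% to 19.7% of the sum over all genes. Of the 100 genes with the highest mean FPKM, 53 were among the 97.

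The genes were divided into ranges by their level. A total of 78 genes had a mean above 50 FPKM, the lowest of them at 74.3 FPKM, and the next gene below was at 20.4 FPKM. The bound of 50 FPKM was placed in this gap after the levels were seen. The step above the gene at 74.3 FPKM was wide too, with Rpl36al next at 244 FPKM. The lower bounds of 5 and 0.5 FPKM are round values. Another 5 genes lay between 5 and 50 FPKM, 4 between 0.5 and 5 FPKM and 10 under 0.5 FPKM. Of the 24 genes that the authors' annotation describes as "like" another ribosomal protein, 7 were among the 78 and 17 were below. One gene, Rps19bp1, is caught by its symbol although it encodes a protein that binds S19 and is no part of the ribosome, and it had 17 reads in the 6 libraries together. Of the rest, 39 genes are named for the small and 57 for the large subunit, with 31 and 47 of these among the 78.

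Per gene length, the 78 genes had a median of 1330 FPKM, with quartiles of 862 and 1760 FPKM. The upper quartile was 2.04 times the lower, and 54 genes were above 1000 FPKM. The median over all 20395 genes of the FPKM table was 1.01 FPKM. The spread between the 78 genes was far wider than that between libraries. The coefficient of variation across genes was 50.7% in FPKM, whereas the ratio of the highest to the lowest library had a median of 1.06 within a gene and reached at most 1.14. The order of the genes was nearly the same in every library, with Spearman correlations of 0.995 to 0.998 across the 78 genes for the 15 pairs of libraries. These genes share library depth and gene lengths in each comparison, so the correlations are a description.

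**Figure D1:**
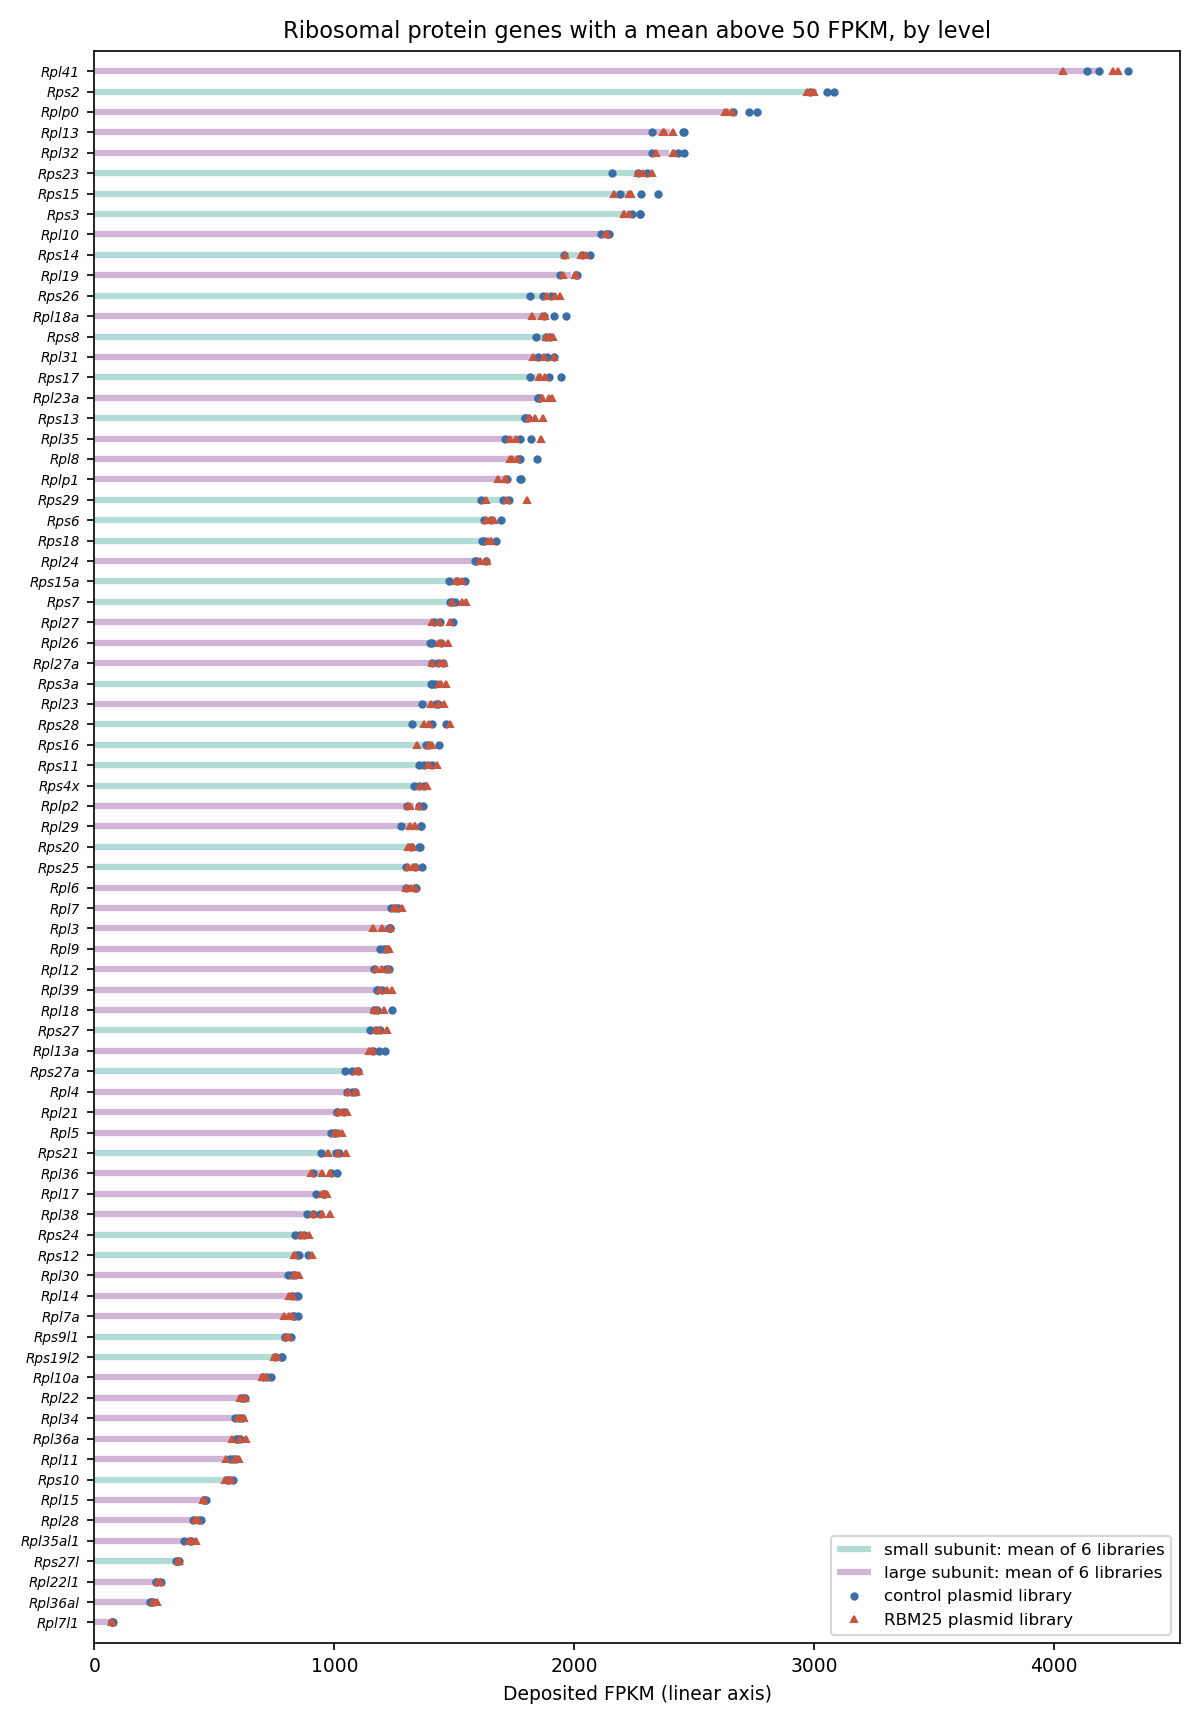
Deposited FPKM (horizontal, linear axis) of 77 of the 78 ribosomal protein genes with a mean above 50 FPKM, ordered from the highest level to the lowest. Bars are means of the 6 libraries, coloured by subunit, and points are single libraries. Rpl41 stands alone at the top, and Rps27l, Rpl22l1, Rpl36al and Rpl7l1, all paralogs of more abundant genes, are the lowest 4.

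The most abundant was Rpl41, which encodes the smallest protein of the ribosome, a short basic peptide of the large subunit. Its level was 4138, 4309 and 4190 FPKM in control replicates 1, 2 and 3 and 4249, 4268 and 4039 FPKM in RBM25 replicates 1, 2 and 3. Rps2, a small-subunit protein near the mRNA entry channel, followed at 3013 ± 45.3 FPKM (SD, n = 6). Next came Rplp0 at 2679 ± 53.9, Rpl13 at 2399 ± 52 and Rpl32 at 2397 ± 53 FPKM (SD, n = 6). Rpl13 and Rpl32, both of the large subunit, differed by less than their spread between libraries. Rps23, at the decoding centre, was at 2268 ± 58.4 FPKM (SD, n = 6). Rps3, at the mRNA entry site and also known for DNA repair, was at 2239 ± 29.8 FPKM, and Rpl10, on chromosome X and needed for a late step of large-subunit maturation, was at 2133 ± 11.4 FPKM.

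The mRNA levels of the stalk genes were not in the order of the proteins' copy number. The lateral stalk, which recruits translation factors, holds 1 copy of P0 and a pair each of P1 and P2. Per gene length, Rplp0 on chromosome 12 was nevertheless the highest of its group. The ratio of Rplp1 to Rplp0 in FPKM was 0.646, 0.644 and 0.649 in the controls and 0.639, 0.652 and 0.644 with the RBM25 plasmid. That of Rplp2 to Rplp0 was 0.489, 0.490 and 0.502 in the controls and 0.495, 0.516 and 0.495 with the RBM25 plasmid. Both ratios overlapped between the groups. L5 and L11 enter the ribosome together with the small ribosomal RNA of the large subunit, and outside the ribosome they bind MDM2, the regulator of p53. Rpl5 was at 1008 ± 15.8 FPKM and Rpl11 at 579 ± 18.6 FPKM (SD, n = 6). Their ratio, Rpl11 to Rpl5, was 0.580 ± 0.0100 in the controls and 0.569 ± 0.0249 with the RBM25 plasmid (SD, n = 3).

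S27a is made as a fusion to ubiquitin, and its gene Rps27a was at 1084 ± 22.9 FPKM (SD, n = 6; log2 fold change 0.032, edgeR adjusted p = 0.71). Rps6, whose protein is the classical substrate of the S6 kinases, was at 1654 ± 24.2 FPKM. Rpl13a, whose protein is known in human cells to silence certain inflammatory mRNAs after interferon-gamma, was at 1169 ± 24.4 FPKM. Rps26, a small-subunit gene mutated in Diamond-Blackfan anaemia, was at 1890 ± 44.3 FPKM. Rps4x, an X-linked small-subunit gene, was at 1364 ± 21.7 FPKM, and Rpl26, whose protein is known in human cells to raise translation of p53 mRNA, at 1435 ± 27.1 FPKM. Rpl39, at the exit tunnel for the growing protein chain, was at 1201 ± 25.1 FPKM (SD, n = 6).

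The 4 lowest of the 78 genes were paralogs. Above them stood Rpl35al1 at 399 ± 17.1, Rpl28 at 428 ± 11 and Rpl15 at 457 ± 3.64 FPKM (SD, n = 6). Rpl15 and Rpl28 had 169988 and 128895 reads over the 6 libraries, and long gene lengths. The length implied by a gene's counts and FPKM, if the authors divided by the total of counted reads, was 2091 bases for Rpl15 and 1693 bases for Rpl28, against a median of 758 bases. Over the 78 genes it ran from 344 bases (Rps29) to 2705 bases (Rpl7l1). Across the 78 genes the Spearman correlation of this length was -0.317 with FPKM and 0.447 with the read count. FPKM holds the length as its divisor, so the first of these is in part built in. How much of the spread in level comes from the choice of gene length was not tested.

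Read by protein, the table covered the whole set. The authors' descriptions named 79 proteins, 47 of the large and 32 of the small subunit, in 360 rows. Of these rows 96 were among the 97 genes and 264 were others, mostly with LOC identifiers and the words "like" or "pseudogene". For 74 proteins the row with the most reads was among the 97 genes. The remaining 5 included SA (Rpsa, 2032 FPKM), S30 (Fau, 1381 FPKM), L37 and L37a. The leading rows of the 79 proteins had a median of 1332 FPKM, and 67 of them lay between 0.5 and 2 times this value. Only the leading rows of L41, S2 and P0 were more than 2 times the median, and 9 were under 0.5 times it. The lowest was L37a at 342 FPKM, so the range from L37a to L41 was 12.3-fold. The median was 1418 FPKM for small-subunit and 1214 FPKM for large-subunit proteins.

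The symbol was a poor guide to the abundant gene for L37. The row with the symbol Rpl37, on chromosome 10, had 247, 228 and 226 reads in control replicates 1, 2 and 3 and 261, 204 and 229 reads in RBM25 replicates 1, 2 and 3. The row LOC120093056, on chromosome 2 and described as ribosomal protein L37, had 125209 reads and held 98.6% of the reads of all 11 rows naming L37. Rpl37 held 1.1%. For L37a, LOC120093072 on chromosome 5 held nearly all of 25213 reads. S9, S19 and L35a had no abundant row under their plain symbols either. Their reads stood under Rps9l1 (143393 reads, 804 FPKM), Rps19l2 (184427 reads, 763 FPKM) and Rpl35al1 (44405 reads, 399 FPKM), where S19 and L35a are proteins whose genes are mutated in Diamond-Blackfan anaemia in humans.

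For most proteins a single row held nearly all reads. The leading row held a median of 99.7% of its protein's reads, and at least 95% for 72 of the 79 proteins. It held under 90% for 6 proteins. In 4 of these the second row was a named paralog: Rps27l for S27 (40.2%), Rpl22l1 for L22 (34.5%), Rpl36al for L36a (30.9%) and Rpl7l1 for L7 (14.8%). In the other two it was a LOC row, LOC100362027 for L30 with 42.7% of reads and LOC100361933 for S12 with 31.1%. The share of Rpl30 lay between 56.6% and 57.7% in the 6 libraries, and that of Rps12 between 65.5% and 68.1%. The sources used here do not give how reads that match both copies were assigned, so the levels of Rpl30, Rps12 and their copies are uncertain. The same limit holds for other proteins with several rows, whatever the share of the leading row.

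**Figure D2:**
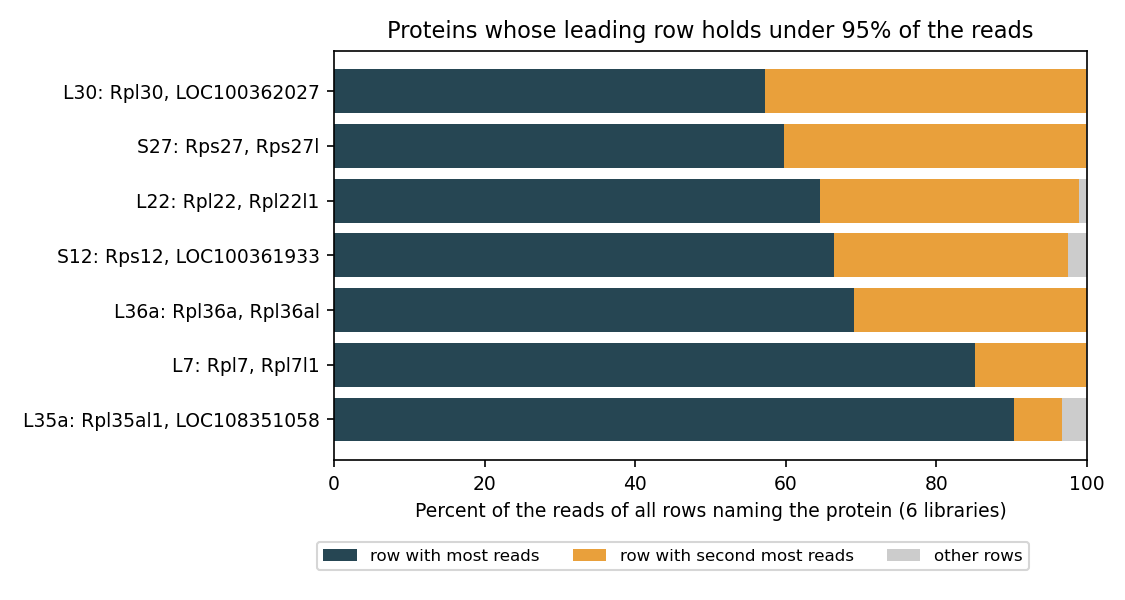
Percent of reads (horizontal axis, summed over 6 libraries) held by the leading row, the second row and all other rows that name the same ribosomal protein, for the 7 proteins whose leading row holds under 95%. For L30 and S12 the second row, with 42.7% and 31.1%, is a LOC gene, while for S27, L22, L36a and L7 it is a named paralog.

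Paralogs are close copies with a gene of their own, and several are known for use in a particular tissue or state. Rps27l, known in human and mouse as a target of p53, was well expressed, at 348 ± 4.12 FPKM against 1184 ± 23.5 FPKM for Rps27 (SD, n = 6). In CPM the ratio of Rps27l to Rps27 was 0.700, 0.656 and 0.674 in control replicates 1, 2 and 3 and 0.684, 0.658 and 0.674 in RBM25 replicates 1, 2 and 3. The RBM25 libraries lay within the range of the controls. Per gene length the ratio was 0.294 ± 0.00714 (SD, n = 6), since the implied length of Rps27l, 850 bases, is greater than that of Rps27, 371 bases.

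Rpl22l1, the paralog of the RNA-binding protein L22, was at 268 ± 9.42 FPKM against 621 ± 8.71 FPKM for Rpl22 (SD, n = 6). The ratio of their CPM was 0.564, 0.511 and 0.511 in control replicates 1, 2 and 3 and 0.540, 0.544 and 0.543 in RBM25 replicates 1, 2 and 3. Control replicate 1 was above and control replicates 2 and 3 were below all RBM25 libraries. Rpl36al, the autosomal copy of the X-linked Rpl36a, stood to it as 0.436, 0.446 and 0.433 in the controls and as 0.472, 0.450 and 0.441 with the RBM25 plasmid. Here RBM25 replicate 3 lay within the range of the controls. Rpl7l1, a relative of L7 that is not counted among the proteins of the mature ribosome, was the lowest of the 78 genes at 74.3 ± 0.997 FPKM (SD, n = 6). It stood to Rpl7 as 0.174 ± 0.00503 in the controls and 0.174 ± 0.00150 with the RBM25 plasmid in CPM (SD, n = 3).

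Other paralogs were close to absent. Rpl3l, which replaces L3 in adult heart and skeletal muscle of the mouse, had 0, 1 and 0 reads in the controls and 1, 1 and 5 reads with the RBM25 plasmid. Rpl3 had 344273 reads in the 6 libraries, and no ratio was formed against a gene with libraries at 0. Rpl39l, known from the mouse testis, had 38 to 58 reads per library, and its ratio to Rpl39 was 0.00311 ± 0.000554 in the controls and 0.00292 ± 0.000645 with the RBM25 plasmid (SD, n = 3). A total of 6 pairs were compared, including Rplp2 to Rplp1, whose CPM ratio was 1.09 ± 0.0120 and 1.11 ± 0.0163 (SD, n = 3). Two-sided exact permutation tests of the log2 ratios gave p from 0.2 to 1 (0.6 to 1 after adjustment over the 6 pairs), where 0.1 is the smallest p that 3 against 3 libraries allow. The differences in log2 ratio, RBM25 minus control, were 0.052 for Rpl36al, 0.039 for Rpl22l1, 0.026 for Rplp2 to Rplp1, -0.0038 for Rpl7l1, -0.0092 for Rps27l and -0.10 for Rpl39l. The sign of the last 3 depended on single libraries. For Rpl7l1 the difference was 0.020 without control replicate 1 and 0.0028 without RBM25 replicate 3. For Rps27l it was 0.015 without control replicate 1 and 0.0056 without RBM25 replicate 2. For Rpl39l it was 0.036 without control replicate 2 and 0.096 without RBM25 replicate 2. Leaving out 1 library also moved the Rpl22l1 difference between 0.016 (without control replicate 2) and 0.087 (without control replicate 1). The Rpl36al difference was 0.025 without RBM25 replicate 1.

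**Figure D3:**
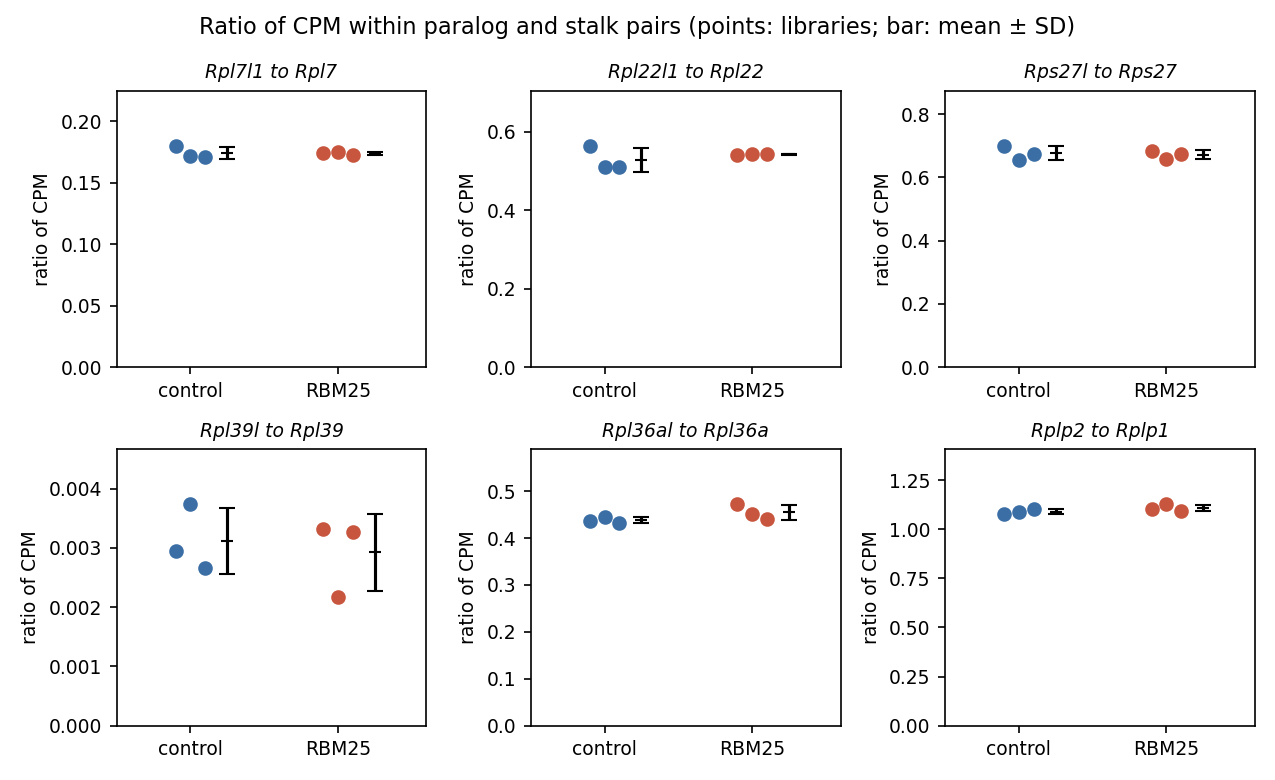
Ratio of CPM (vertical axis, starting at 0) of the less to the more abundant gene of 5 paralog pairs and of Rplp2 to Rplp1, with control libraries in blue, RBM25 libraries in red and the mean ± SD of 3 libraries in black. The groups overlap in all 6 pairs, and Rpl39l lies near 0.003 of Rpl39 where Rps27l lies near 0.67 of Rps27.

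No ribosomal protein gene was called in the comparison of RBM25 plasmid with control plasmid. Of the 97 genes, 87 passed the filter on low counts, and these were all 78 genes above 50 FPKM and 9 of the 19 below. With edgeR's quasi-likelihood test adjusted over all 12882 genes tested, 0 of the 87 passed an adjusted p of 0.05, where 0.404% of all genes did (0.357% higher and 0.0466% lower with the RBM25 plasmid). The smallest adjusted p among them was 0.309, and over the other fits it was lowest with limma-trend on log2(FPKM + 0.1), at 0.0753. DESeq2 also called 0. At an unadjusted p under 0.05 there were 2 of the 87 (2.30%), against 11.2% of all genes tested. Over the other fits this count of ribosomal protein genes ran from 1, as with DESeq2, to 10, as without RBM25 replicate 3. The groups did not overlap for 12 of the 87 (13.8%), against 16.2% of all genes tested, with 3 of the 12 higher and 9 lower with the RBM25 plasmid. Over all genes tested, 8.31% were higher without overlap and 7.94% lower.

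The fitted errors of the abundant genes were small. They rest on the spread among 3 libraries per group, which may be technical, so the intervals below hold for these libraries. Over the 78 genes, log2 fold changes lay between -0.052 and 0.067, that is, differences of -3.51% to 4.73% from the control level. These limits moved when 1 library was left out, to -0.081 without control replicate 1, 0.093 without control replicate 2 and 0.042 at the upper end without RBM25 replicate 2. Their standard errors were 0.025 to 0.041. For 77 of the 78 genes the 95% interval, not adjusted for the number of genes, lay within a 1.1-fold change in either direction, and for all 78 it lay within a 1.2-fold change. Without 1 library, 72 to 77 of the intervals lay within 1.1-fold and 78 within 1.2-fold. Of the 78, 42 had a positive and 36 a negative log2 fold change. The median over the 87 tested genes was -0.0025, beside -0.0021 over all 12882 genes, and the median size of the log2 fold change was 0.024 for the 78 and 0.060 for all genes. Genes with many reads have smaller errors, which bears on this last difference, and no test was made of it.

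**Figure D4:**
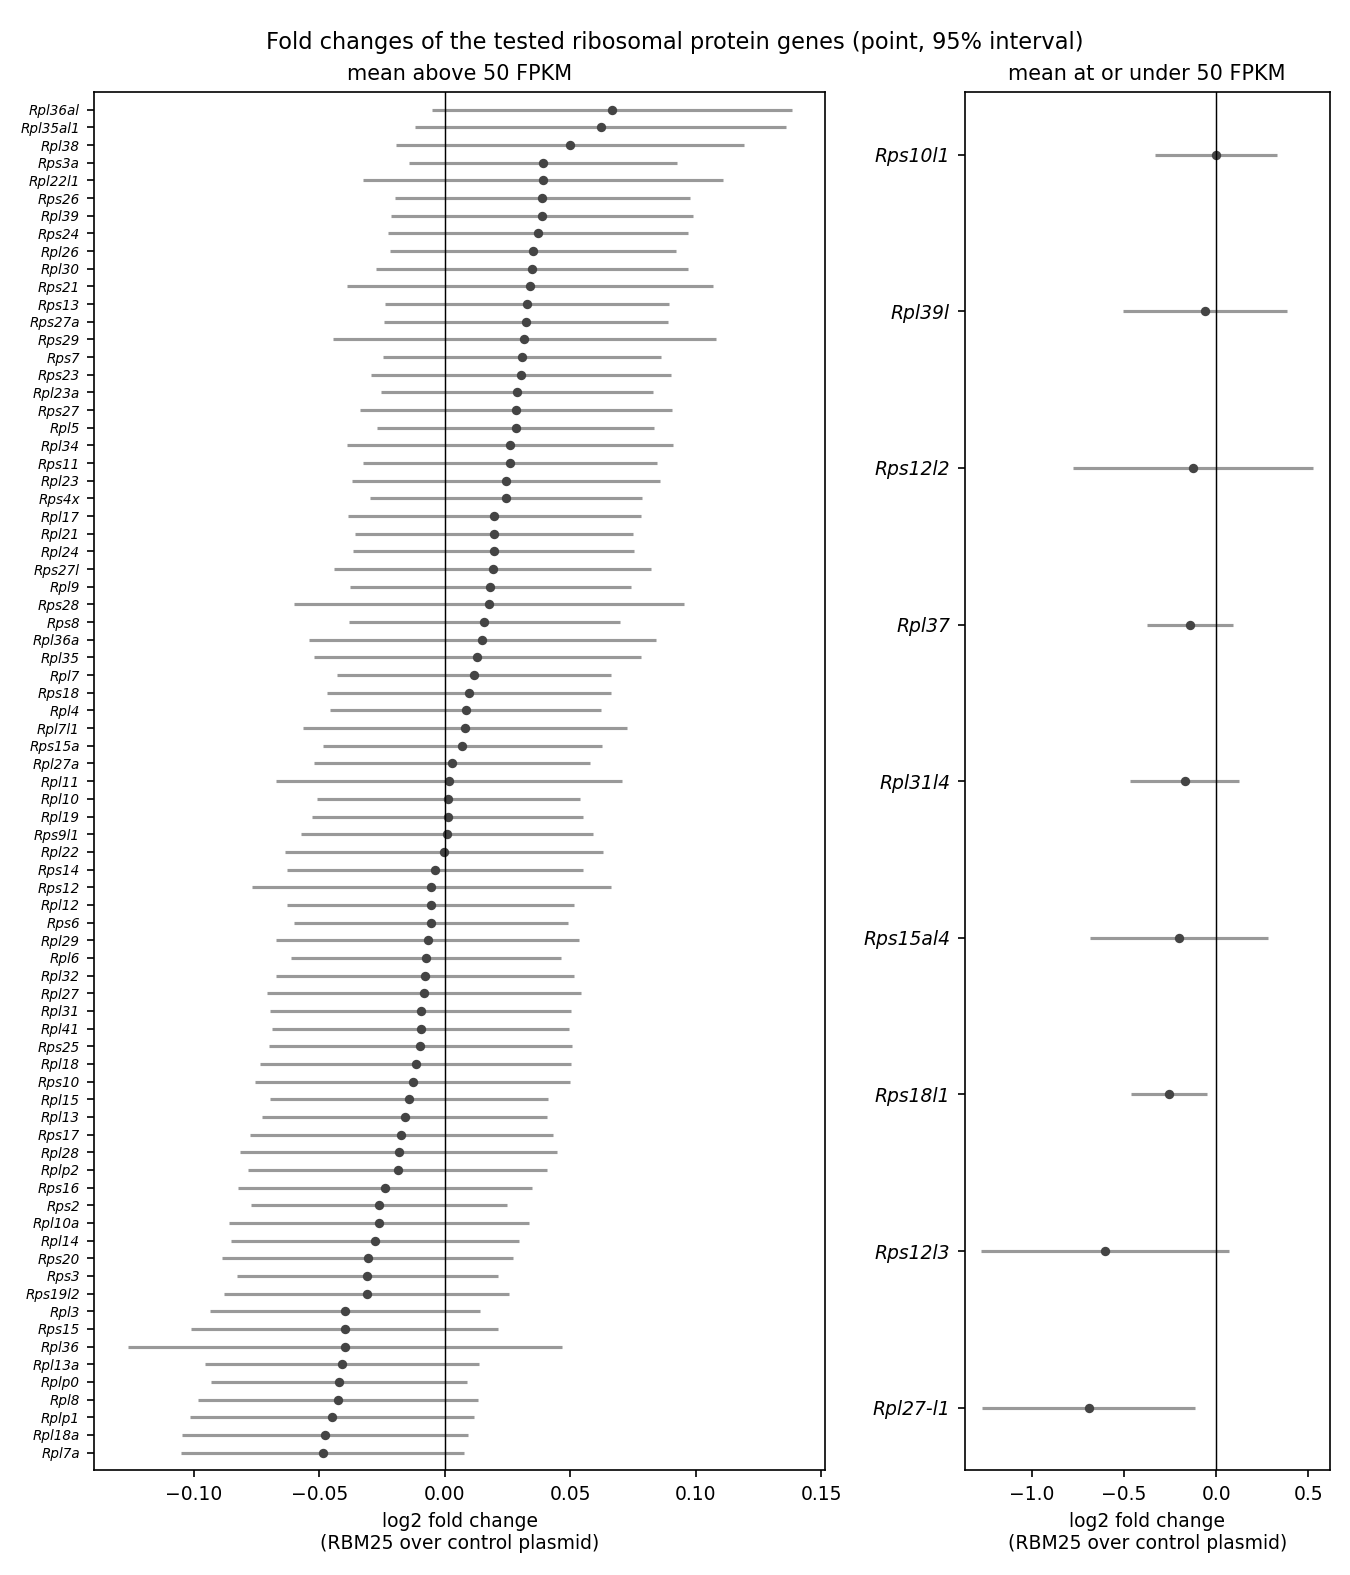
Log2 fold change, RBM25 over control plasmid (horizontal axis), with its 95% interval from edgeR for 77 of the 78 tested genes above 50 FPKM (left) and the 9 tested genes at or under 50 FPKM (right, on a wider scale). On the left every point lies between -0.049 and 0.067 and every interval crosses 0, and on the right all 9 points are negative.

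The highest log2 fold changes above 50 FPKM were those of Rpl36al and Rpl35al1, both with "like" in their description. The order rested on single libraries. Without control replicate 1, Rpl35al1 was at 0.030 and Rpl22l1 at 0.079, and without RBM25 replicate 2, Rpl36al was at 0.038, Rpl35al1 at 0.032, Rpl38 at 0.024 and Rps3a at 0.042. Rpl36al was at 188, 196 and 184 CPM in control replicates 1, 2 and 3 and at 196, 207 and 192 CPM in RBM25 replicates 1, 2 and 3, so the groups overlapped (log2 fold change 0.067 ± 0.035 SE, edgeR adjusted p = 0.485). Rpl35al1 was at 232, 251 and 249 CPM in the controls and 248, 266 and 250 CPM with the RBM25 plasmid (0.062 ± 0.036, adjusted p = 0.548). Rpl38, known in the mouse for its part in translating Hox mRNAs, had 0.050 ± 0.034 and Rpl22l1 0.039 ± 0.035 (SE; adjusted p = 0.615 and 0.729). Rps3a, a small-subunit gene on chromosome 2, was at 1314, 1313 and 1324 CPM in the controls and 1350, 1352 and 1358 CPM with the RBM25 plasmid. Its groups did not overlap, and its log2 fold change of 0.039 ± 0.026 did not pass (SE; adjusted p = 0.608, edgeR).

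On the other side stood genes of both subunits. The stalk gene Rplp0 was at 3151, 3273 and 3226 CPM in the controls and 3136, 3118 and 3118 CPM with the RBM25 plasmid, without overlap (-0.042 ± 0.025 SE, edgeR adjusted p = 0.56). Rplp1 (-0.045) and Rpl3 (-0.040), the latter near the centre where peptide bonds form, were without overlap too, as were Rpl7a (-0.049) and Rps3 (-0.031), while Rpl5 (0.028) and Rpl23a (0.029) were without overlap and positive. None of these passed (edgeR adjusted p from 0.528 to 0.748). Rpl7a and Rpl23a were chosen after their values were seen, as were Rpl15, Rpl28, Rpl30, Rps12 and the genes named only for their copies or their range over libraries.

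The genes at low levels gave larger and less certain values. All 9 that were tested had a negative log2 fold change, with a median of -0.17 and standard errors of 0.10 to 0.33, and this grouping was made after the levels were seen. Rps18l1, described as S18-like, had 239, 223 and 269 reads in the controls and 240, 212 and 214 reads with the RBM25 plasmid. In CPM all its RBM25 libraries (7.28, 6.70 and 7.66) were below all controls (9.38, 7.77 and 8.70), with a log2 fold change of -0.26 ± 0.10 (SE; adjusted p = 0.309, edgeR). Rpl27-l1, on chromosome X, had 23, 25 and 31 reads against 19, 18 and 16 (log2 fold change -0.69 ± 0.28 SE, edgeR adjusted p = 0.333). Rps12l3 had 24, 18 and 18 reads against 16, 13 and 14 (-0.60 ± 0.33 SE, edgeR adjusted p = 0.51). Rpl31l4 (-0.17) and Rps15al4 (-0.20) had edgeR adjusted p of 0.709 and 0.783, and Rps15al4 was at 0.069 without control replicate 1 and at -0.087 without RBM25 replicate 2. Rps15al4 had 243 reads in control replicate 1 and 161 to 213 in the others. Without control replicate 1, Rpl31l4 was at -0.062 and Rps12l3 at -0.37, and 6 of the 9 were negative.

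The copies outside the 97 genes were split evenly in direction. Of 96 tested rows that name a ribosomal protein, are not its leading row and lie outside the 97 genes, 48 had a negative log2 fold change, with a median of -0.0011. With the 9 low genes included, 105 such rows were tested and 0 were called by edgeR (smallest adjusted p = 0.13) and 0 by DESeq2, with 6 (5.71%) at an unadjusted p under 0.05, beside 0.404% and 11.2% of all genes tested. Summed over all 277 copy rows, the level was 885, 857 and 864 CPM in the controls and 884, 842 and 877 CPM with the RBM25 plasmid, so the groups overlapped. Most of this sum lay in the L30 and S12 copies whose levels are uncertain. LOC100362027 had means of 309 CPM in the controls and 315 CPM with the RBM25 plasmid, and LOC100361933 had 236 CPM in each group. The 10 genes of the 97 that were not tested had 2 to 38 reads each in the 6 libraries together, among them Rpl31l1 and Rpl31l2 with 2 reads each, Rpl22l2 with 7 reads, Rpl5l1 with 24 reads and Rpl30l1 with 38 reads.

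Small and large subunits kept nearly the same balance. The ratio of reads of small-subunit genes to reads of large-subunit genes was 0.641, 0.642 and 0.642 in control replicates 1, 2 and 3 and 0.647, 0.644 and 0.645 in RBM25 replicates 1, 2 and 3. All RBM25 libraries were above all controls by a small amount, with means of 0.642 ± 0.000603 and 0.646 ± 0.00148 (SD, n = 3), and as a sum over chosen genes the ratio was not tested. Among the 78 abundant genes, 18 of 31 small-subunit and 24 of 47 large-subunit genes had a positive log2 fold change, with medians of 0.0096 and 0.0011.

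The abundant genes also differed a little from library to library. The median deviation of the 78 genes from their mean over the 6 libraries, in log2 CPM, was -0.025, 0.024 and -0.0016 in control replicates 1, 2 and 3. It was 0.0039, 0.015 and -0.015 in RBM25 replicates 1, 2 and 3. Control replicate 1 was the lowest library for 38 of the 78 genes and control replicate 2 the highest for 35, so the widest distance lay between libraries of the same group. The median over all 12882 tested genes was within 0.0027 of 0 in every library.

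**Figure D5:**
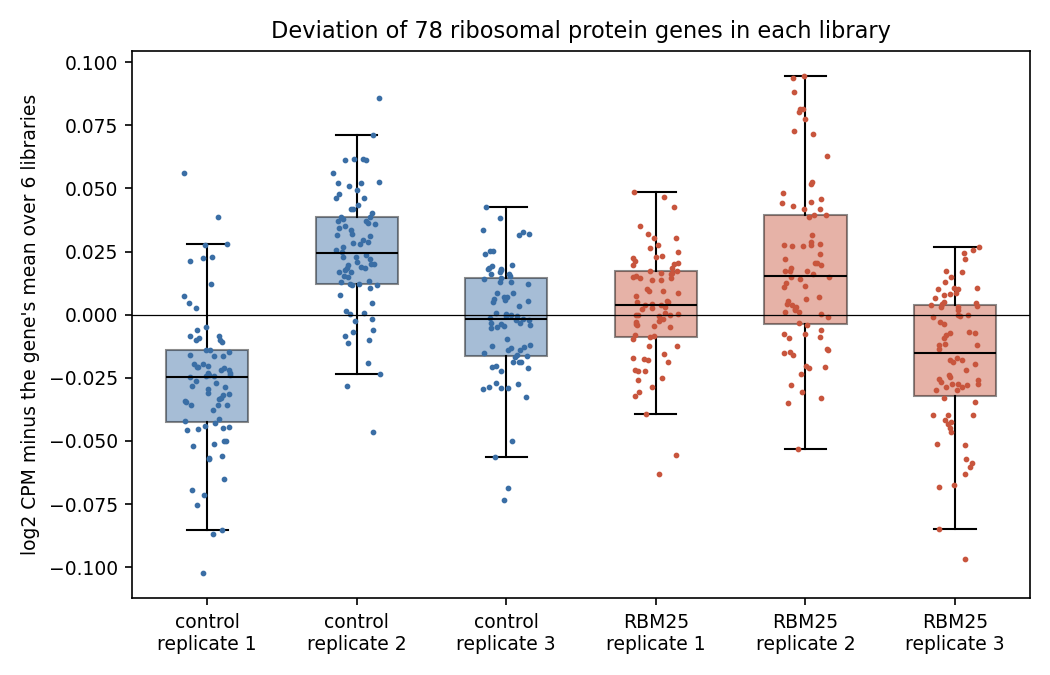
Deviation of each of the 78 ribosomal protein genes above 50 FPKM from its mean over the 6 libraries (vertical axis, log2 CPM), by library. Boxes span the quartiles with the median as a line, whiskers reach to 1.5 times the quartile range, and points are genes. The medians run from -0.025 in control replicate 1 to 0.024 in control replicate 2, with the RBM25 libraries in between.

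The range over libraries differed between genes. The widest ranges over the 6 libraries were 0.20 for Rpl35al1, 0.18 for Rpl36 and 0.17 for Rpl36al in log2 CPM, followed by 0.16 for Rps28, 0.16 for Rps29 and 0.16 for Rps21. Of the 20 genes with the widest ranges, 13 were shorter than the median length of the 78. In RBM25 replicate 2 the shorter 39 genes had a median deviation of 0.028 and the longer 39 of 0.0041, and in control replicate 1 these were -0.032 and -0.023. They were 0.027 and 0.024 in control replicate 2 and -0.0052 and 0.0058 in control replicate 3. RBM25 replicate 1 had 0.0052 and 0.00055, and RBM25 replicate 3 had -0.013 and -0.018. Rps29, for example, was at 555, 597 and 585 CPM in the controls and 596, 622 and 558 CPM with the RBM25 plasmid, lowest in control replicate 1 and highest in RBM25 replicate 2. The part of gene length in these ranges was not tested.

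Genes that act around the ribosome were described from lists, which together held 139 tested genes. Of these, 2 (1.44%) were called and 24 (17.3%) had an unadjusted p under 0.05, beside 0.404% and 11.2% of all genes tested. The median log2 fold change of all genes, -0.0021, stands beside the medians that follow. The list of 4 ribosomal or ribosome-bound proteins outside the symbol rule, among them Rpsa, Fau and the signalling scaffold Rack1, had 0 calls (0 at an unadjusted p under 0.05) and a median of -0.037. Rpsa was at 2286, 2340 and 2319 CPM in the controls and 2294, 2244 and 2222 CPM with the RBM25 plasmid, and the groups overlapped (log2 fold change -0.039 ± 0.026 SE, edgeR adjusted p = 0.604). Of 17 tested TOP mRNAs for other proteins, such as elongation factors, 0 were called, 5 (29.4%) had an unadjusted p under 0.05, where 11.2% of all genes did, and 9 were positive (median 0.00018). Npm1, a nucleolar chaperone, came nearest (0.093 ± 0.028 SE, edgeR adjusted p = 0.157), and it passed without RBM25 replicate 3 (edgeR adjusted p = 0.0499).

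Of 36 ribosome assembly factors 1 was called, by edgeR and by DESeq2 alike, and 4 (11.1%) had an unadjusted p under 0.05. Nop58, a core protein of the particles that methylate ribosomal RNA, was at 119, 111 and 112 CPM in the controls and 126, 130 and 134 CPM with the RBM25 plasmid, without overlap. It rose by a log2 fold change of 0.19 ± 0.036 (SE; adjusted p = 0.00922, edgeR), and the call was lost without control replicate 2 (edgeR adjusted p = 0.181), control replicate 3 (0.0997) or RBM25 replicate 2 (0.0682), and with limma-trend (adjusted p = 0.331 and 0.349). The list's median was 0.0036, and 21 of its 36 genes were positive. None of 14 chaperones and importers of ribosomal proteins was called (2, or 14.3%, at an unadjusted p under 0.05, median 0.0072). Its nearest, the importin Ipo7, had 0.13 ± 0.034 (SE; adjusted p = 0.0941, edgeR, 0.0341 without RBM25 replicate 3 and 0.0445 with no filter on low counts). None of 15 genes for RNA polymerase I and its factors was called (1, or 6.67%, at an unadjusted p under 0.05, median 0.036), with Taf1d nearest (0.13 ± 0.053 SE, edgeR adjusted p = 0.333).

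Of 32 tested translation initiation factors 0 were called higher and 1 lower, with 16 positive log2 fold changes. Eif2b2, a subunit of the exchange factor of eIF2, was at 133, 136 and 127 CPM in the controls and 120, 118 and 119 CPM with the RBM25 plasmid, without overlap. Its log2 fold change was -0.15 ± 0.033 (SE; adjusted p = 0.0399, edgeR), a call lost in all fits without 1 library except that without RBM25 replicate 3, with edgeR adjusted p from 0.0525 to 0.402, with DESeq2 (adjusted p = 0.0607), with the gene length correction (edgeR adjusted p = 0.0563) and with limma-trend (adjusted p = 0.324 and 0.325). The list's median was 0.00045, with 8 of 32 (25%) at an unadjusted p under 0.05, where 11.2% of all genes were. None of 11 elongation and termination factors (median -0.0051), 17 genes of mTORC1 and TOP mRNA control (median -0.026) and 5 genes of MDM2 and p53 surveillance (median -0.037) was called, with 3 (27.3%), 4 (23.5%) and 2 (40%) genes at an unadjusted p under 0.05. DESeq2 called 0 genes in every list but that of assembly factors. Nearest were Eef2k, the kinase of elongation factor eEF2 (-0.17 ± 0.048), Eif4ebp2, a repressor of cap-dependent initiation (-0.091 ± 0.032), and Mdm4, a partner of MDM2 (0.23 ± 0.059), with edgeR adjusted p of 0.116, 0.24 and 0.0799 (SE). Eef2k passed without RBM25 replicate 3 (edgeR adjusted p = 0.0413) and Mdm4 with no filter on low counts (edgeR adjusted p = 0.0143).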

How the data were processed

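Per the labels' protocols, poly(A) RNA was made into strand-marked libraries and sequenced as read pairs. The submitters' processing notes name HISAT2 and DESeq2, with mRatBN7.2 as the build. Not given in the sources used here are the counting program, the annotation, the use of strand and the treatment of reads with several matches. The deposited values are whole read counts per gene and FPKM, which the authors rounded to 2 decimals with a gene length that is not defined. Counts were tested with edgeR 4.0.16 (R 4.3.3) over all genes: filterByExpr with a minimum count of 10, TMM factors (0.996 to 1.01), a robust quasi-likelihood fit on group alone, and Benjamini-Hochberg adjustment, called at 0.05. DESeq2 1.42.0 and limma 3.58.1 (limma-trend on log2(FPKM + 0.1) and log2(FPKM + 1)) served as alternatives, with other scalings, filters, a gene length correction and fits without 1 library. The edgeR procedure was tested on simulated counts with known changes. There the share of false calls was above the nominal one, and most of the smallest changes were not called. CPM are scaled by the TMM factors, except in the marker sums. The common biological coefficient of variation was 3.91%. Chi-square per degree of freedom between replicates was 3.07 to 5.88, so none agreed within sampling noise, and the values of RBM25 replicate 3 against its group (5.88 and 4.55) were the highest. Nothing says that libraries came from separate cultures, and the spread behind each p-value is that among these libraries, which may be technical. Genes to name were the 6 highest and lowest in FPKM, the 5 largest fold changes each way, the 5 smallest p, the paralog pairs and genes with known special roles, and for each list up to 3 called genes or the nearest one. The members and lists were chosen with earlier results of these data known. Some genes of the set are not reported by name here.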

Additional observations from a re-analysis of the deposited data

How the results depend on the processing

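Across 16 alternatives, among them DESeq2, limma-trend on FPKM, other scalings and filters, a gene length correction and the 6 fits without 1 library, 0 ribosomal protein genes were called in each. The median log2 fold change stayed between -0.012 and 0.013 without 1 library and between -0.0040 and 0.0036 otherwise. The replicate numbers of the 2 groups are not stated to pair the libraries, and deviations of same-numbered libraries correlated at 0.16, -0.11 and 0.050. With the replicate number as a block, the median was -0.0037 with 0 ribosomal protein genes called, while calls over all genes went from 52 to 436, and to 341 with the length correction added. The block also brought Npm1, Ipo7, Eef2k and Mdm4 past the threshold. Calls over all genes were 205 with no filter, and 2 and 1 with limma-trend at pseudocounts of 0.1 and 1. Leaving out 1 library gave 5 calls (control replicate 2) to 352 calls (RBM25 replicate 3). Of 606 values of named ribosomal protein genes under alternatives, 24 had the other sign. Rps6 was 0.0011 with library size only. Rpl22 was 0.0067 with library size only, 0.0025 with no filter, 0.0012 at a minimum count of 50, and 0.00029 with limma-trend at either pseudocount. Without 1 library, ranges were -0.017 to 0.011 for Rps6, -0.0079 to 0.013 for Rpl22, -0.0031 to 0.0072 for Rpl10, -0.028 to 0.043 for Rpl11, -0.33 to 0.069 for Rps15al4, -0.023 to 0.021 for Rpl41, -0.030 to 0.012 for Rpl32, -0.17 to 0.11 for Rpl39l and -0.020 to 0.052 for Rpl36a. The log2 ratio differences without 1 library were -0.018 to 0.020 for Rpl7l1, -0.032 to 0.015 for Rps27l, -0.21 to 0.096 for Rpl39l, 0.016 to 0.087 for Rpl22l1, 0.025 to 0.073 for Rpl36al and 0.014 to 0.035 for Rplp2 to Rplp1. Over all ribosomal protein genes with FPKM above 0, the median was 1169 FPKM and the ratio of small to large subunit medians 1.30. At a mean of at least 1 FPKM these were 1214 FPKM and 1.16, and on reads per kilobase of implied length, which the genes lowest in FPKM lack, 1202 FPKM and 1.13. The implied length was derived from the deposited FPKM, so these last values are no independent measure. They differ from the first through the genes left out. Intervals cover counting and replicate error as fitted, and levels between genes rest on the authors' gene lengths.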
